A study of Mus musculus with 6 samples.

Results

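The genes described here encode the receptors for type I interferon (Ifnar1 and Ifnar2), interferon gamma (Ifngr1 and Ifngr2), interleukin 6 (Il6ra and Il6st) and interleukin 10 (Il10ra and Il10rb), together with the cytokines Il6 and Il10. They were chosen by gene symbol, with earlier results of these data known. All 10 were present among the 23282 gene entries of each count table. Of these, 9 had enough counts to be tested among 11092 genes, and Il10 did not. RAW 264.7 cells are mouse macrophages, an established line able to form osteoclasts, the multinucleated cells that resorb bone. Messenger RNA was counted at day 5 of osteoclast differentiation by QuantSeq, which reads the 3′ ends of transcripts, in 3 control samples and 3 samples labelled CPN, in a series titled for chaperonin 60 kDa. The labels give neither the source nor the dose of the chaperonin, and all 6 samples share the cell line and the day. Since nothing in the labels ties each sample to its own culture, the p-values reflect the spread of these samples alone, and part of it may be technical.

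All these receptors signal through Janus kinases, which phosphorylate STAT transcription factors. A receptor is built from a chain that binds the ligand most tightly and a partner chain: IFNAR2 with IFNAR1, IFNGR1 with IFNGR2, the IL-6 receptor alpha chain with the shared signal transducer gp130 (Il6st), and IL-10R1 (Il10ra) with IL-10R2 (Il10rb). Each receptor acts through its own set of STAT factors, with STAT2 serving type I interferon and STAT3 serving IL-6 and IL-10. Both interferons are known to restrain osteoclast formation, and IL-6 and IL-10 are both made by activated macrophages.

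The sequences just upstream of 3 of these genes are shown because they are the members that passed the test, Il6 and Ifnar2 higher and Il6ra lower in CPN. Each is the 250 bases before the annotated start (RefSeq, GRCm38.p6), read 5′ to 3′ on the strand of the gene: chr5:30012864-30013113 on the plus strand for Il6, chr16:91372533-91372782 on the plus strand for Ifnar2 and chr3:89913197-89913446 on the minus strand for Il6ra. Capitals mark matches, on either strand, to 6 motifs: NF-kB (GGGNNTTTC), AP-1 (TGANTCA), C/EBP (TTNNGNAAT), the gamma activated site GAS (TTCNNNGAA), the interferon response element ISRE (GAAANNGAA) and the core of the cyclic AMP response element (TGACG).
Il6: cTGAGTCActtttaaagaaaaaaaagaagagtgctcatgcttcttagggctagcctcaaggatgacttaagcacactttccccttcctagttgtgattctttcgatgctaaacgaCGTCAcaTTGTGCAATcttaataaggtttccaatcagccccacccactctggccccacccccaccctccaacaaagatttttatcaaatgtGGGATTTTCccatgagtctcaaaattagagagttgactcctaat
Ifnar2: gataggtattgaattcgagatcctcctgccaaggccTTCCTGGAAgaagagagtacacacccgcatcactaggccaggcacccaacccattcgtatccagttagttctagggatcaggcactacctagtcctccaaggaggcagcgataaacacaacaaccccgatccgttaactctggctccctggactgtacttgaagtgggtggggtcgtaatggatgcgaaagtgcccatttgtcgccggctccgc
Il6ra: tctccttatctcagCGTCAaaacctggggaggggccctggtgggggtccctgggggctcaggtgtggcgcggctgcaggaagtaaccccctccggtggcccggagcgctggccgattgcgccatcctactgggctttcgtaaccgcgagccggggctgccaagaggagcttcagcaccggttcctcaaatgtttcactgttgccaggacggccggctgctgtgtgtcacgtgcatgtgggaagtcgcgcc
In Il6 the capitals stand for AP-1 (at the far end of the window, from its second base on), the cyclic AMP core on the reverse strand (135), C/EBP (128) and NF-kB (44), and no 2 of these matches overlap. The single match in Ifnar2 is to GAS, 214 bases before the start, and the one in Il6ra is to the cyclic AMP core. Among all 32851 promoter windows of this length, 3.72% held the NF-kB motif, 6.75% AP-1, 10.2% C/EBP, 7.02% GAS, 7.13% ISRE and 17.8% the cyclic AMP core. A match is only a run of letters and says nothing of binding in these cells. A window was found for 7 of the 10 genes, the others being Il10, Il10ra and Il10rb.

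At day 5, the cytokine gene Il6 and the receptor chain gene Ifnar2 were higher in CPN cells and the receptor chain gene Il6ra was lower. These 3 passed edgeR's quasi-likelihood test at an adjusted p of 0.05 (Benjamini-Hochberg over all tested genes), out of 9 members tested, where 14.0% of all tested genes passed. By direction, 2 members were higher, where 7.62% of all genes were, and 1 was lower, where 6.39% were. Those shares are 845 and 709 genes, and with library totals alone they were 690 and 914. Of the 8 receptor chains, 2 passed. The values of the groups were apart for 5 of the 9 tested members, against 32.6% of all tested genes. For Il6 this and the direction were fixed in advance: with every control at 0, it could pass the count filter only through all 3 CPN libraries. CPN lay above control for 3 of them (16.9% of all genes) and below for 2 (15.7%). The median log2 fold change was 0.14 over the 9 tested members and -0.01 over all tested genes. The members' median depended on the fit, from 0.02 with library totals alone to 0.34 without control 2, 0.54 without control 3 and 0.64 without both control 3 and CPN 1. In the fits without control 2 alone and without control 3 alone Il10 was tested too, so those medians are over 10 members. In the fit without both control 3 and CPN 1, 0 of the members passed, where 3.97% of genes did. Those libraries detected 12551 and 13079 genes and the other 4 between 11874 and 11988. The ribosomal RNA entry Rn45s held 11.2% of the counts in control 3 and 9.04% in CPN 1, against 13.0% to 16.5% in the other 4. Whether this difference affects the calls was not tested.

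**Figure D1:**
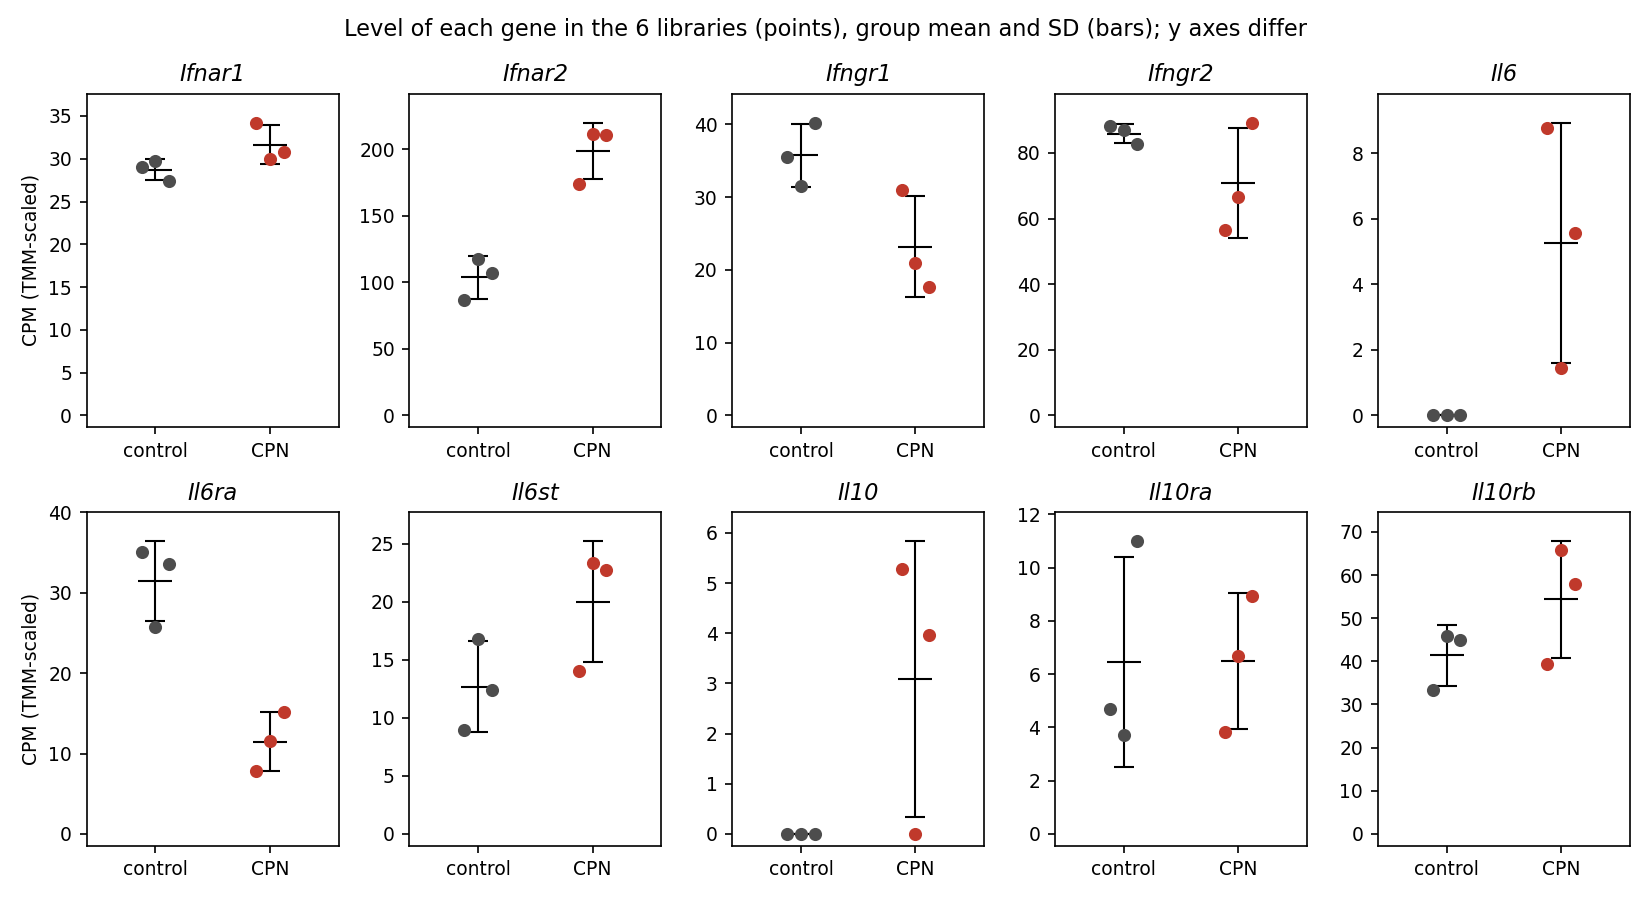
CPM scaled by TMM (y axis, a different range in each panel) for the 10 genes in the 3 control and 3 CPN libraries. Points are libraries, in the order of replicate 1 to 3, and bars are the group mean and SD. Ifnar2, Il6 and, narrowly, Ifnar1 lie wholly higher in CPN, while Il6ra and, narrowly, Ifngr1 lie wholly lower. Il6 and Il10 are at 0 in every control library.

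Ifnar2 encodes the high-affinity chain of the type I interferon receptor, and its gene (ENSMUSG00000022971.18) spans chr16:91372783-91405589 on the plus strand of mm10. It had 86.5, 118 and 107 CPM (the usual unit of counts relative to the library's size, here scaled by TMM) in control 1 to 3. In CPN 1 to 3 it had 174, 211 and 211 CPM. Every CPN library was thus above every control library. The mean went from 104 ± 15.9 to 199 ± 21.2 CPM (SD, n = 3), a rise of 1.92-fold, or 0.94 ± 0.186 on the log2 scale (SE, edgeR adjusted p = 0.00463). The call held when any single library was left out, and ended without both control 3 and CPN 1 (1.05 on the log2 scale, edgeR adjusted p = 0.0531). Mouse Ifnar2 also yields a soluble form of the receptor, and these counts per gene do not separate it from the membrane form.

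Ifnar1, which encodes the partner chain of the same receptor (chr16:91485238-91507441), did not pass. Its levels were 29.0, 29.7 and 27.3 CPM in the controls and 34.2, 30.0 and 30.8 CPM in CPN. The CPN values lay just above the control values, the closest being 30.0 and 29.7 CPM, and this order rests on the TMM scaling. The log2 fold change was 0.14 with a 95% interval from -0.40 to 0.68 (edgeR adjusted p = 0.785).

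Because the chains of a receptor work together, their balance was followed as the log2 ratio of their counts within each library, which needs no scaling between libraries. The annotation and strand use behind the counts are not given, so the ratio is read only across libraries and not as one chain exceeding the other. For Ifnar1 over Ifnar2 the controls gave -1.57, -1.99 and -1.97, and the CPN libraries -2.35, -2.81 and -2.77. The groups did not overlap, and the ratio was 1.75-fold lower in CPN, a difference of -0.80 ± 0.201 (SE) on the log2 scale. The two-sided exact permutation test gave p = 0.1, the smallest that 3 against 3 libraries allow, and 0.2 after adjustment over the 4 ratios.

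Ifngr1, the ligand-binding chain of the interferon gamma receptor (chr10:19591949-19610229), had 35.5, 31.5 and 40.2 CPM in control. It had 31.0, 21.0 and 17.6 CPM in CPN, so that the highest CPN library lay just under the lowest control library. The log2 fold change was -0.62 with a 95% interval from -1.25 to 0.0024, and did not pass (edgeR adjusted p = 0.192).

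Ifngr2, the signalling partner chain (chr16:91547072-91565623), had 88.2, 86.8 and 82.6 CPM in control and 56.5, 66.7 and 89.2 CPM in CPN. CPN 3 was the highest of all 6 libraries and CPN 1 the lowest, so the groups overlapped. Its log2 fold change of -0.28 had a 95% interval from -0.74 to 0.18 (edgeR adjusted p = 0.463). The log2 ratio of Ifngr1 over Ifngr2 was -1.27 ± 0.214 in control and -1.62 ± 0.735 in CPN (SD), with overlapping groups (exact permutation p = 0.5, adjusted 0.667).

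**Figure D2:**
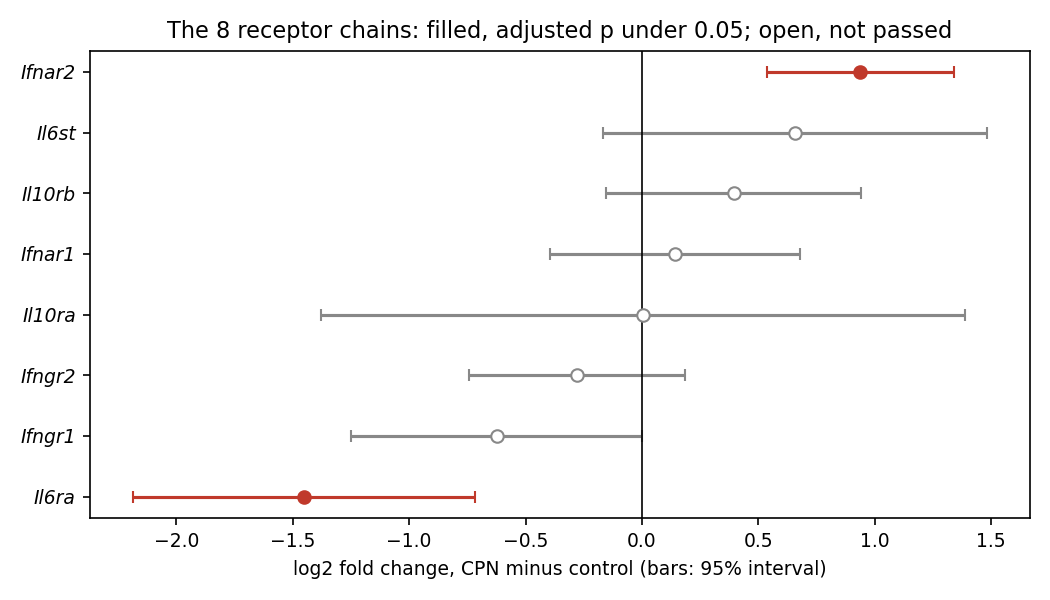
Fitted log2 fold change of the 8 receptor chains (x axis, CPN minus control) with 95% intervals. Filled red points passed an adjusted p of 0.05, and these are Ifnar2 at 0.94 and Il6ra at -1.45, while the intervals of the 6 open points reach or cross 0.

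Il6 encodes interleukin 6, an inflammatory cytokine, at chr5:30013114-30019981. Every control library had 0 counts of it, and CPN 1, 2 and 3 had 73, 11 and 45 counts. In CPM the CPN libraries had 8.76, 1.44 and 5.58, a mean of 5.26 ± 3.67 (SD, n = 3). A 0 was set at a floor of 3 counts per library, which is 0.294 to 0.359 CPM in the controls. The CPN mean of Il6 was 15.7-fold above that floor, and the gene passed (edgeR adjusted p = 0.00793). This bound allows for counting error in the controls but not for the spread of the CPN libraries. Leaving out CPN 1, the library with the most Il6 counts, ended the call (edgeR adjusted p = 0.0667) and lowered the bound to 10.5-fold. A 0 may hide more than 3 counts: among genes with 20 to 60 counts in both other control libraries, between 1.36% and 7.14% were at 0 in a given control library, so the true fold may lie under the bound.

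Il6ra, the ligand-binding chain of the IL-6 receptor (ENSMUSG00000027947.11), lies on the minus strand at chr3:89864059-89913196. It moved opposite to its ligand, with 35.0, 25.8 and 33.5 CPM in control and 7.80, 11.5 and 15.1 CPM in CPN. The highest CPN library was well under the lowest control library. The mean fell 2.74-fold, from 31.4 ± 4.98 to 11.5 ± 3.67 CPM, which is -1.45 ± 0.339 on the log2 scale (SE, edgeR adjusted p = 0.0122). The call was lost at adjusted p = 0.0581 without control 3, 0.0529 without CPN 1 and 0.0509 without CPN 2, with the fold between 2.36 and 2.72 in those fits. The annotation places the antisense gene Gm42809 across the start of Il6ra, with no counts used here.

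Il6st encodes gp130, the signal transducer shared by the IL-6 family (chr13:112464070-112510086). It had 8.93, 16.8 and 12.4 CPM in control and 14.0, 23.3 and 22.7 CPM in CPN. The groups overlapped through control 2 and CPN 1, and the log2 fold change of 0.66 (95% interval -0.17 to 1.48) did not pass (edgeR adjusted p = 0.313). Within libraries, the log2 ratio of Il6ra over Il6st was 1.97, 0.62 and 1.43 in the controls, while CPN 1, 2 and 3 gave -0.84, -1.01 and -0.58. Every CPN ratio was below every control ratio. The ratio was 4.44-fold lower in CPN, a difference of -2.15 ± 0.412 (SE), at the smallest p the exact permutation test allows (p = 0.1, adjusted 0.2).

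**Figure D3:**
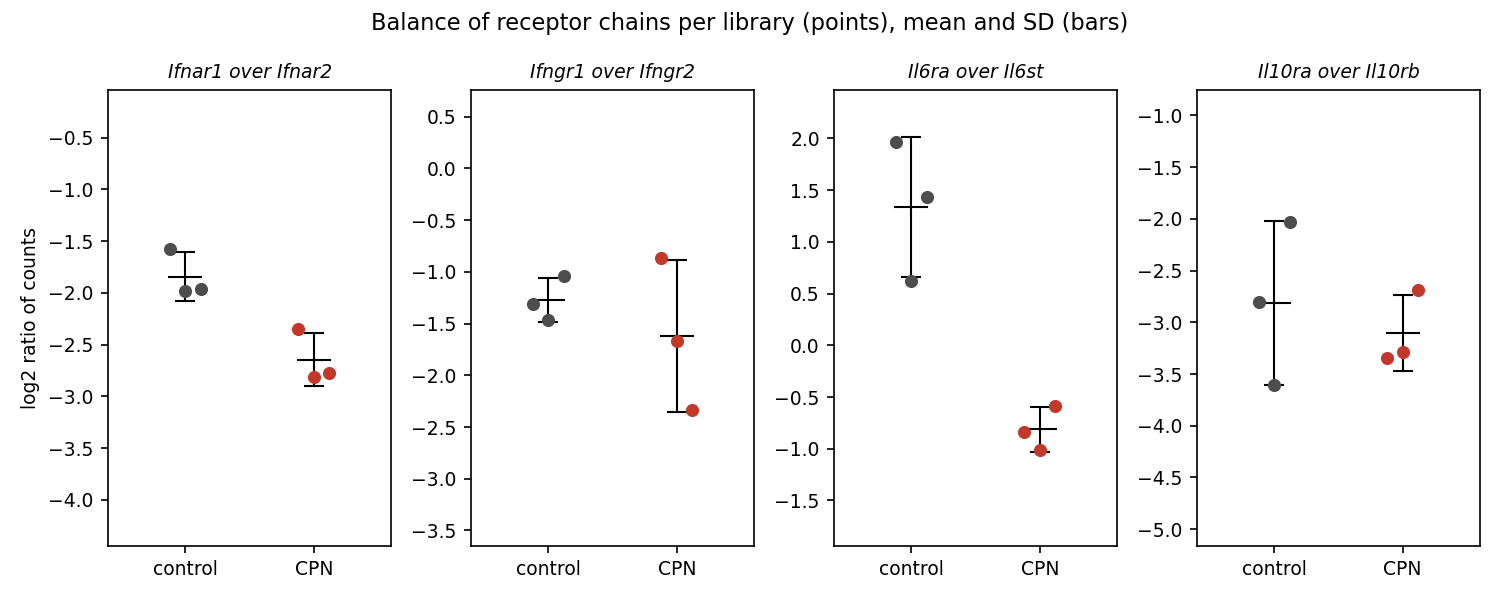
Log2 ratio of the counts of the chains of each receptor (y axis) in the 3 control and 3 CPN libraries, with group mean and SD as bars and a y range of the same width in every panel. The groups are apart for Ifnar1 over Ifnar2 and for Il6ra over Il6st, and they overlap for the interferon gamma and IL-10 receptors.

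Il10 encodes interleukin 10, a cytokine that damps macrophage activation (chr1:131019845-131024974). It had 0 counts in every control library and 44, 0 and 32 counts in CPN 1 to 3, or 5.28, 0 and 3.97 CPM. CPN 2 was thus like the controls, and the gene did not reach the count filter. The CPN mean was 9.21-fold above the floor of 3 counts per library, a bound that was 5.93-fold without CPN 1 and 13.9-fold without CPN 2. With CPN 2 at 0, the bound describes the mean and not each library. Without the filter Il10 passed (edgeR adjusted p = 0.0163), in a fit where 13.1% of genes passed. Zeros beside such counts were not rare: among 649 genes with 20 to 60 counts in both CPN 1 and CPN 3, 35 (5.39%) were at 0 in CPN 2.

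Il10ra encodes the chain particular to the IL-10 receptor (minus strand, chr9:45253837-45269149). It had 4.71, 3.71 and 10.99 CPM in control and 3.84, 6.68 and 8.93 CPM in CPN. The groups overlapped widely, and the log2 fold change of 0.00 had a 95% interval from -1.38 to 1.39 (edgeR adjusted p = 0.998), so a change of 2-fold either way was not detectable here. Its sign turned with library totals alone (-0.14). Gm20612 and Mir7086 lie within Il10ra, with no counts used here.

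Il10rb, the chain that IL-10 shares with related cytokines (chr16:91406164-91425834), had 33.3, 45.9 and 45.0 CPM in control and 39.5, 65.7 and 57.8 CPM in CPN. CPN 2 and CPN 3 were above all controls and CPN 1 was not. Its log2 fold change was 0.39 with a 95% interval from -0.16 to 0.94 (edgeR adjusted p = 0.368). The log2 ratio of Il10ra over Il10rb was -2.81 ± 0.789 in control and -3.10 ± 0.364 in CPN (SD, exact permutation p = 0.7, adjusted 0.7).

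Ifnar2, Il10rb, Ifnar1 and Ifngr2 lie in this order on the plus strand within 192.8 kb of chromosome 16, with 574 bases between Ifnar2 and Il10rb. The annotation also holds Gm21970, a gene that overlaps both Ifnar2 and Il10rb, with no counts used here. The fitted log2 fold changes along the cluster were 0.94, 0.39, 0.14 and -0.28, and of these that of Ifnar2 passed. Of 12 tested genes near the cluster, 0 were higher and 1 was lower, against 7.62% and 6.39% of all tested genes. Their median log2 fold change was -0.01. Slc5a3, an inositol transporter gene, fell by 0.58 ± 0.159 on the log2 scale (edgeR adjusted p = 0.027), and the call ended when any one library except control 2 was left out. It shares its locus with the mitochondrial ribosomal gene Mrps6, which had 290 ± 14.8 CPM in control and 203 ± 43.0 CPM in CPN (edgeR adjusted p = 0.0837). Itsn1, an endocytic scaffold gene, and Paxbp1 had log2 fold changes of 0.73 and 0.59 (edgeR adjusted p = 0.108 and 0.141).

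**Figure D4:**
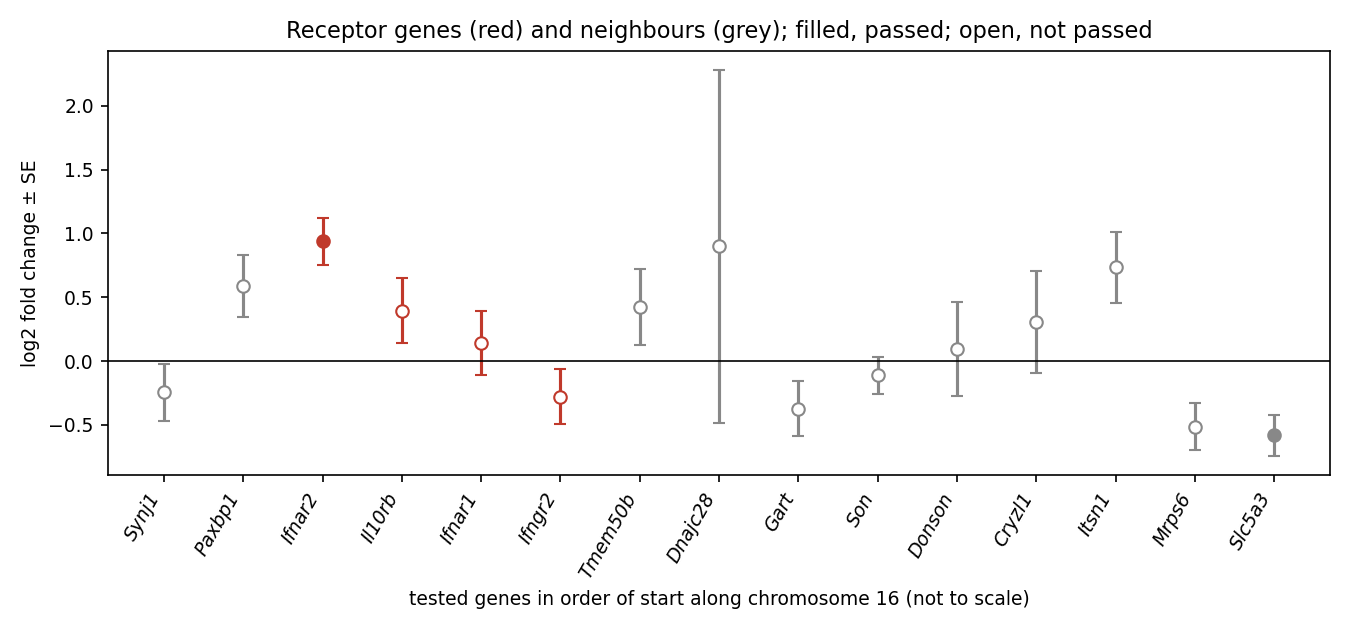
Fitted log2 fold change with SE (y axis) of the tested genes around the receptor cluster, in order of their start on chromosome 16 and not to scale. The 4 receptor genes are red and run from 0.94 for Ifnar2 to -0.28 for Ifngr2, and Ifnar2 and Slc5a3 are filled because they passed. Atp5o, at -0.20, is left out because its position is not unique in the annotation.

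Ligand genes for these receptors and their relatives were mostly silent, and those that passed were of the IL-6 and IL-12 families. Of 25 ligand genes, 13 were at 0 in all 6 libraries, among them Ifng, Ifna1, Ifna2, Ifna4 and Ifna5. Ifnb1, the interferon beta gene, had 1 count in all. By counting error alone, a 0 allows up to 3 counts in a library, between 0.294 and 0.393 CPM, and as for Il6 it may hide more. Of the 5 ligand genes tested, 3 rose and none fell, against 7.62% and 6.39% of all tested genes. Their median log2 fold change was 1.71, also with Il23a set at its bound. Il23a, among the 3 that rose, was at 0 in every control, so its direction was fixed in advance, as for Il6. Osm, which encodes the gp130 ligand oncostatin M, had 0.392, 6.59 and 3.97 CPM in control and 18.6, 30.1 and 27.7 CPM in CPN (edgeR adjusted p = 0.014). Its rise of 2.81 on the log2 scale was between 2.27 and 3.58 with single libraries left out, and the call ended without control 3, CPN 2 or CPN 3. Ebi3, a subunit of IL-27, rose from 32.0 ± 10.2 to 83.6 ± 17.9 CPM (edgeR adjusted p = 0.00416), though it overlaps the opposite-strand gene Gm16712, which had 2300 counts and a log2 fold change of 1.38. Il23a, a subunit of IL-23, had 0 counts in control and 16.9, 4.32 and 3.72 CPM in CPN. Its CPN mean was 24.9-fold above the floor of 3 counts (edgeR adjusted p = 0.00292). Without CPN 1, which held most of its counts, the bound was 12.01-fold (edgeR adjusted p = 0.0489). None of these calls held without both control 3 and CPN 1, in a fit where 3.97% of all tested genes passed. Clcf1, another gp130 ligand gene, had 0.654 ± 1.13 and 2.22 ± 1.36 CPM and did not pass (edgeR adjusted p = 0.547).

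Related receptor chains were low, with 6 of 16 at 0 in all libraries, including Osmr and Ifnlr1. Of 5 tested, 1 fell and 0 rose (median log2 fold change -0.60), against 6.39% and 7.62% of all tested genes. Il20rb, a class II cytokine receptor chain, had 22.8, 13.1 and 4.67 CPM in control and 0.600, 0.393 and 3.60 CPM in CPN (edgeR adjusted p = 0.0282), and its call ended without control 1, CPN 1 or CPN 2. F3, Il23r and Il12rb1 did not pass (edgeR adjusted p = 0.129, 0.358 and 0.753).

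Among the kinases and STAT factors that carry the signal, 2 of 11 tested rose and none fell (median log2 fold change 0.47). Of all tested genes, 7.62% rose and 6.39% fell. Jak2, a kinase used by the interferon gamma receptor and by gp130, had 8.53, 13.2 and 11.9 CPM in control and 59.4, 26.5 and 43.8 CPM in CPN (log2 fold change 1.95 ± 0.347, edgeR adjusted p = 0.00229). Stat3 had 69.2, 109 and 80.2 CPM in control and 209, 164 and 162 CPM in CPN (1.05 ± 0.212, edgeR adjusted p = 0.00524). For both genes the groups did not overlap. Neither call held without both control 3 and CPN 1, in a fit where 3.97% of all tested genes passed. Stat3 overlaps Stat5a (1138 counts) and Irf9 overlaps Rnf31 (593 counts), neither of which passed. Stat2 and Irf9, both part of the factor ISGF3 of type I interferon, had log2 fold changes of 0.84 and 0.73 and did not pass (edgeR adjusted p = 0.129 and 0.134).

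Inhibitors of receptor signalling passed in both directions, 3 of the 12 tested as higher and 3 as lower (median log2 fold change -0.01). Of all tested genes, 7.62% were higher and 6.39% lower. Socs3, the feedback inhibitor that binds gp130, had 5.30, 14.6 and 8.65 CPM in control and 57.8, 52.9 and 67.5 CPM in CPN (edgeR adjusted p = 0.000279). Usp18, which acts at IFNAR2 to damp type I interferon signalling, had 4.81, 8.15 and 1.64 CPM in control and 20.9, 45.7 and 34.0 CPM in CPN (edgeR adjusted p = 0.00306). The phosphatase gene Ptpn1 stood at 270 ± 59.6 CPM in control and was lower, at 105 ± 17.1 CPM, in CPN (edgeR adjusted p = 0.000823). Ptpn6, encoding SHP-1, was lower too, at 126 ± 23.7 CPM against 273 ± 55.6 CPM (edgeR adjusted p = 0.00309). The other genes that passed, named after their values were seen, were the phosphatase gene Ptpn2, higher by 0.75 on the log2 scale (edgeR adjusted p = 0.0452), and Pias1, lower, at -0.98 on that scale (edgeR adjusted p = 0.032). Both lost the call with the replicate block and without control 1, control 3, CPN 1 or CPN 2, and Ptpn2 also without CPN 3 and with library totals alone. Adam17, a protease that sheds the IL-6 receptor from the cell surface, had 247 CPM in control and 209 CPM in CPN on average and did not pass (edgeR adjusted p = 0.41).

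**Figure D5:**
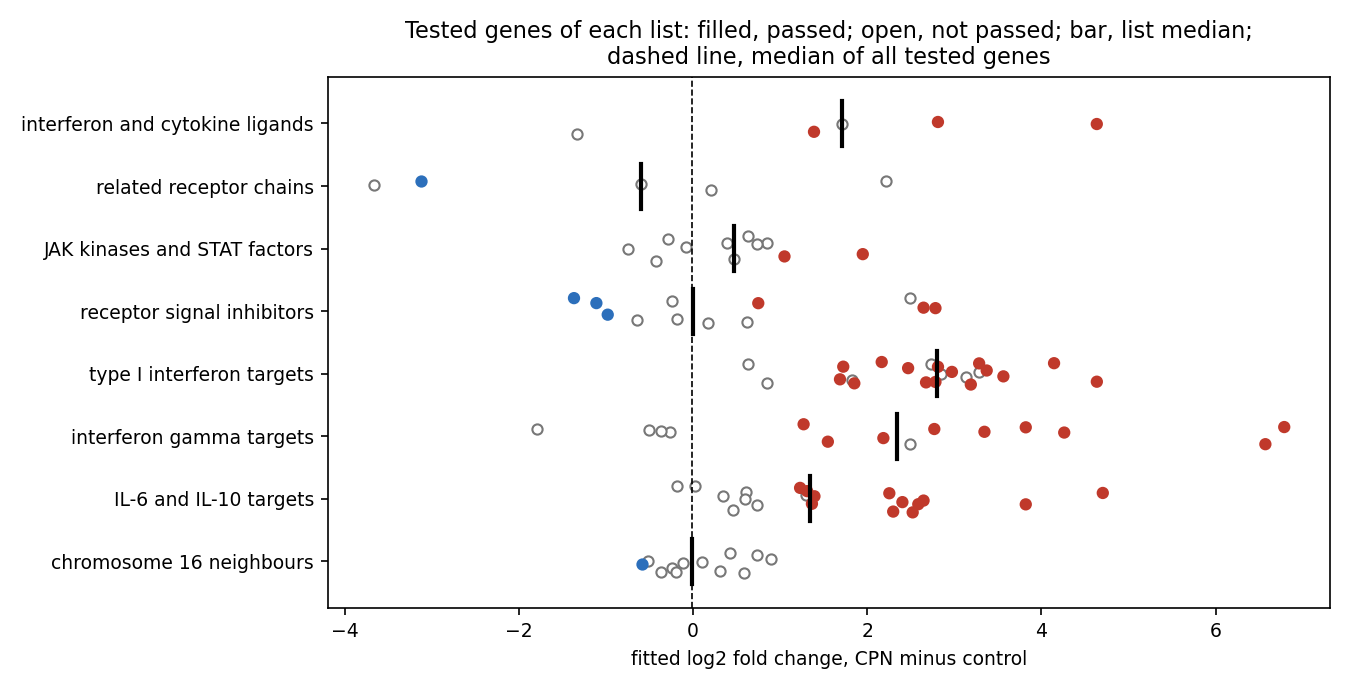
Log2 fold change (x axis, CPN minus control) of each tested gene in 8 lists of ligands, receptors, signal carriers, inhibitors, targets and neighbours. Red and blue points passed as higher and lower, and open points did not pass. Black bars are list medians, the dashed line is the median of all tested genes, and Il23a is placed at its bound. Points of the type I interferon, interferon gamma and STAT3 target lists lie mostly to the right, and those of the chromosome 16 neighbours lie around 0.

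Many genes known to be induced through these receptors passed as higher. The lists of these targets, like those above, were chosen with earlier results of these data known, so their counts are a description. The target lists share genes such as Usp18, Stat2, Socs1, Socs3 and Fcgr1 with one another or with the lists above. Of 22 type I interferon targets tested, 15 rose and none fell (median log2 fold change 2.80), against 7.62% and 6.39% of all tested genes. Ifi44 had 21.1, 26.7 and 20.3 CPM in control and 221, 255 and 229 CPM in CPN, with no overlap (edgeR adjusted p = 1.4e-06). The regulator Irf7 rose by 3.56, the modifier Isg15 by 4.14 and the RNA sensor gene Ddx58 by 2.67 on the log2 scale. Irf7 overlaps the opposite-strand gene Phrf1 (3887 counts), which did not pass. Without both control 3 and CPN 1, 7 of the type I targets passed, where 3.97% of all genes did.

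Interferon gamma targets gave 9 higher and none lower of 14 tested (median log2 fold change 2.34), against 7.62% and 6.39% of all tested genes. Leaving out both control 3 and CPN 1 gave 4 higher, where 2.43% of all genes were higher. Cd274, which encodes the checkpoint ligand PD-L1, had 5.30, 12.2 and 4.44 CPM in control and 71.3, 87.4 and 64.0 CPM in CPN (edgeR adjusted p = 7.1e-05). Nos2, the inducible nitric oxide synthase, went from 0.918 ± 1.59 to 97.9 ± 19.4 CPM, Gbp7, a guanylate-binding protein, from 0.688 ± 0.380 to 13.3 ± 4.36 CPM, and Cd74, the invariant chain, from 92.4 ± 15.5 to 270 ± 53.3 CPM. These 3 also passed (edgeR adjusted p up to 0.00134), while Cxcl9 was at 0 in all libraries. The genes that follow were named after their values were seen. The 5 tested genes that did not pass were Irf1, Icam1, H2-Aa, H2-Eb1 and Socs1. Their log2 fold changes were -0.27, -0.36, -1.79, -0.50 and 2.49. Ciita, Gbp2 and Gbp5 had 2, 3 and 9 counts in all and were not tested.

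Targets of IL-6 and IL-10 through STAT3 gave 12 higher and none lower of 20 tested (median log2 fold change 1.34). Of all tested genes, 7.62% were higher and 6.39% lower. Leaving out both control 3 and CPN 1, 7 of these targets passed, where 3.97% of all genes did. Beside Socs3, the kinase gene Pim1 had 13.2 ± 3.95 CPM in control and was higher in CPN, at 79.1 ± 22.5 CPM (edgeR adjusted p = 0.000113). The early response gene Ier3 rose from 53.3 ± 18.1 to 282 ± 56.1 CPM and the heme oxygenase gene Hmox1 from 23.0 ± 13.7 to 132 ± 34.1 CPM (edgeR adjusted p = 5e-05 and 0.000503). Many of these genes also answer other inflammatory signals, and the signal behind each rise was not tested.

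The genes whose profile over the 6 libraries was most like that of Ifnar2, by the root mean square difference of centred log2 CPM, were H2-D1 (0.0873), Ahcyl1 (0.0885) and Cldnd1 (0.0911). H2-D1, a class I histocompatibility gene whose reads near-identical copies can share, had 544 ± 96.1 CPM in control and 1112 ± 61.9 CPM in CPN. Profiles near that of Il6ra included those of Nfam1, an immunoreceptor gene (0.0907), and Spc25, a kinetochore gene (0.134). Nfam1 had 55.6 ± 11.3 CPM in control and 18.7 ± 4.68 CPM in CPN. They were chosen for that likeness over the same libraries, so their own difference between the groups is a description.

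The libraries held between 7957228 and 9713938 counts, which sets how far low genes such as Il6, Il10 and Il10ra can be resolved. Macrophage genes, summed over 10, stood at 1759 to 2353 CPM in control and 2570 to 2909 CPM in CPN, with Csf1r at 629 and 481 CPM and Cd68 at 845 and 740 CPM on average, and with Mertk and Marco at 0. Of 7 macrophage genes tested, 4 were higher in CPN and 0 lower, against 7.62% and 6.39% of all tested genes. The 4 were Adgre1 (32.7 and 113 CPM on average), Cd14 (94.8 and 324 CPM), Itgam (60.7 and 239 CPM) and Fcgr1 (7.07 and 98.6 CPM). Of 10 tested osteoclast genes 8 were lower and 1 higher in CPN, and their sum over 12 genes went from 4504 to 4763 CPM in control to 1887 to 2511 CPM in CPN. In these bulk samples, fewer osteoclasts and less RNA per cell cannot be told apart for Il6ra or any other gene that fell. Granulocyte genes summed to between 0 and 0.117 CPM in control and between 18.0 and 34.6 CPM in CPN, almost all of it S100a8, with Elane, Camp and Ngp at 0. Stromal genes summed to between 0 and 6.23 CPM in control and between 12.2 and 20.4 CPM in CPN, led by Dcn and, in CPN 2, Lum. In CPN 1 to 3 Dcn had 94, 59 and 98 counts and Lum had 11, 63 and 0. Col1a1 averaged 1.48 CPM in control and 1.20 CPM in CPN. B cell genes other than Blnk were at 0 or nearly so, and T and NK cell genes reached at most 3.01 CPM. The part of these shifts in the levels of Il6, Il10 and the receptors was not tested.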

How the data were processed

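The authors deposited counts per gene in 1 table for each of 6 libraries, made from TRIzol RNA and QuantSeq 3′ libraries, per the labels' protocols. Reads were handled with Bowtie2 and bedtools on mm10, per the submitters' processing notes. The sources used here do not give versions, annotation or the use of strand. Positions of genes are from GENCODE M21 (GRCm38, the same build).

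Library sizes were scaled by TMM over genes kept by filterByExpr (minimum count 10, minimum total 15), and 11092 genes entered the test of edgeR 4.0.16 under R 4.3.3 (quasi-likelihood test, Benjamini-Hochberg adjustment, 0.05). SE is the log2 fold change divided by the square root of F, and 95% intervals use the fit's degrees of freedom. CPM are counts divided by the scaled library size. For genes at 0 in every control library the fold is the CPN mean over a floor of 3 counts per control library, called a bound. It covers counting error in the controls only, and not the spread of the CPN libraries. Chain ratios add 0.5 counts. The code was tested on simulated counts.

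Members and gene lists were chosen with earlier results of these data known. Named were all members, up to 4 genes of smallest p in each list of ligands, receptors, signal carriers, inhibitors, targets and neighbours, the 3 profiles nearest to the tested member of smallest p in each direction, and genes overlapping a member; a gene that the rule names is not reported here. Marker genes, the 2 inhibitors so marked and the interferon gamma targets so marked were named after their values were seen. Alternatives were scaling by RLE or by no factor (library totals alone), the tools DESeq2 1.42.0 and limma-voom (limma 3.58.1), no filter, a filter of 10 counts in 3 libraries, the replicate number as a block, each library left out, and control 3 and CPN 1 left out together.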

Additional observations from a re-analysis of the deposited data

How the results depend on the processing

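With RLE size factors, library totals alone, DESeq2, limma-voom, no filter, a filter of 10 counts in 3 libraries or the replicate block, Ifnar2, Il6 and Il6ra passed each time and none of the 6 other tested members did, where between 12% and 17.6% of genes passed. Library totals alone shifted the median over all genes to -0.13 (log2) and turned the near-zero value of Il10ra to -0.14. Il10 had a log2 bound of 3.20 and passed with no filter. Leaving out control 3 and CPN 1 together gave 446 genes, 273 higher and 173 lower, and 0 members: Ifnar2 at 1.05 (edgeR adjusted p = 0.0531), Il6 at a log2 bound of 3.43 (0.139) and Il6ra at -1.19 (0.187), none past the threshold. It left 0 ligand, 0 related receptor, 0 kinase and STAT and 0 neighbour genes, with 7 type I interferon, 4 interferon gamma and 7 STAT3 targets passed.

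Related receptors passed in number 2 with DESeq2, 0 with limma-voom and 0 with the replicate block, and neighbours 2 with library totals, 2 with DESeq2, 2 with limma-voom and 0 with the block. The replicate numbers did not pair the samples (correlations of same-numbered deviations -0.0508, 0.0195 and 0.0276), and the block gave 1326 genes against 1554.

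With each library left out in turn, the count of genes ranged from 884 (without control 3) to 1954 (without control 2), higher genes from 525 to 1131, lower genes from 359 to 823, and members called from 1 (without CPN 1, where 9.0% of genes passed) to 3. Log2 fold changes ranged from 0.08 to 0.19 for Ifnar1, 0.82 to 1.06 for Ifnar2, -0.89 to -0.46 for Ifngr1, -0.48 to -0.14 for Ifngr2, -1.70 to -1.24 for Il6ra, 0.46 to 0.93 for Il6st and 0.24 to 0.58 for Il10rb. Bounds ranged from 3.39 to 4.43 for Il6 and from 2.57 to 3.80 for Il10, which passed without CPN 2. Il10ra ranged from -0.30 (without CPN 3) to 0.62, with -0.18, -0.26 and -0.01 without control 1, control 2 and CPN 2. Genes passed ranged from 2 to 3 of the ligands, 0 to 1 of the related receptors, 2 to 3 of the kinases and STATs, 4 to 6 of the inhibitors, 13 to 16, 6 to 8 and 11 to 14 of the type I interferon, interferon gamma and STAT3 targets, and 0 to 2 of the neighbours. The log2 ratio difference ranged from -0.95 to -0.67 for Ifnar1 over Ifnar2, -2.51 to -1.84 for Il6ra over Il6st, -0.73 to 0.0034 (without CPN 3) for Ifngr1 over Ifngr2 and -0.69 to 0.10 (without control 3) for Il10ra over Il10rb; a prior of 2 counts turned no ratio. Over all these alternatives the list medians ranged from 1.29 to 3.32 for ligands, -1.17 to -0.08 for related receptors, 0.33 to 0.61 for kinases and STATs, -0.14 to 0.52 for inhibitors, 2.51 to 3.18, 1.88 to 2.93 and 1.19 to 1.49 for the targets and -0.20 to 0.06 for neighbours. The number of genes tested in a list also differed between fits, from 5 to 12 for ligands and from 5 to 10 for related receptors. The causes of all these changes were not tested.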
